A study of Mus musculus with 4 samples.

Results

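The 10 genes described here encode the core of the basement membrane, the sheet of extracellular matrix on which epithelia rest and which wraps muscle cells and vessels. They are the laminin α chain genes *Lama1*, *Lama2*, *Lama4* and *Lama5*, the β chain genes *Lamb1* and *Lamb2*, the γ chain genes *Lamc1* and *Lamc3*, *Nid1* (nidogen 1) and *Hspg2* (perlecan). They were chosen by symbol, as the rows of the 4 count tables that bear these names, and make up 10 of the 31053 genes counted.

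The counts come from single cells of the proximal mouse testis, where the seminiferous tubules open through the Sertoli valve (SV) into the rete testis (RT), at P14. Cells were captured on the 10x Genomics platform, which counts the 3' ends of RNA molecules by unique molecular identifiers (UMIs). There were 2 control and 2 *Sox17*-cKO libraries, each from 3 pooled pups, on a C57BL/6 background. In the *Sox17*-cKO mice (SF1Cre:Sox17flox/flox) both *Sox17* alleles carry loxP sites and the Cre runs under *Nr5a1* (SF1) sequences, which act in the somatic lineage of the gonad. The sample records give the controls as SF1Cre, whereas the study's methods describe floxed littermates, so whether the controls share the Cre or the floxed alleles is uncertain. Pups within a library cannot be separated, each library stands as 1 replicate, and the interstitial cells washed off during dissociation were discarded, so stromal, Leydig, vascular and macrophage cells are those that stayed with the tubules.

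A laminin is a cross-shaped trimer of 1 α, 1 β and 1 γ chain. The α chain carries the main sites bound by integrins and dystroglycan, the cell's receptors for laminin, and many laminins form a network at the cell surface. Nidogen links this network to collagen IV, and perlecan, a large heparan sulfate proteoglycan, is built into the same sheet. In the testis, the wall of the seminiferous tubule is made jointly by Sertoli cells on its inner face and peritubular myoid cells on its outer face.

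The promoters of 4 of these genes are printed because they belong to the α chains that set the RT epithelium (*Lama5*) and the myoid and stromal cells (*Lama2*) apart in what follows, and to the pair of members whose levels ran most closely together across cell classes (*Lamb1* and *Hspg2*). Each runs 5′ to 3′ on the gene's own strand from 250 bases before to 50 bases after the RefSeq start in GRCm38.p6, with GGGCGG, the GC box, and its reverse complement in capitals. *Lama5* lies on the minus strand (chr2:180225810-180226109), *Lama2* on the minus strand (chr10:27616893-27617192), *Lamb1* on the plus strand (chr12:31265043-31265342) and *Hspg2* on the plus strand (chr4:137468553-137468852). The RefSeq start of *Lama2* lies inside the gene as GENCODE draws it.
Lama5: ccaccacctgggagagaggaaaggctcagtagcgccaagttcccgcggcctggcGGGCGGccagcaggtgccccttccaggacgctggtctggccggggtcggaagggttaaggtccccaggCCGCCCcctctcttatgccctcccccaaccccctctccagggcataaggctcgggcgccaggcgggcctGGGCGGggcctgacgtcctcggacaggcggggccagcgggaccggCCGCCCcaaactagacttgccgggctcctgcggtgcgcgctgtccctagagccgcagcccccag
Lama2: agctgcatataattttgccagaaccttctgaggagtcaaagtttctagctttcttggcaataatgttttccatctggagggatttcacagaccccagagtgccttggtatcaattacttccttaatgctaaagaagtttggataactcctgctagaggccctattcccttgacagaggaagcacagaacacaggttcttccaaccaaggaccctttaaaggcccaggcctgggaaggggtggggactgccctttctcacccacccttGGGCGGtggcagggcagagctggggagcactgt
Lamb1: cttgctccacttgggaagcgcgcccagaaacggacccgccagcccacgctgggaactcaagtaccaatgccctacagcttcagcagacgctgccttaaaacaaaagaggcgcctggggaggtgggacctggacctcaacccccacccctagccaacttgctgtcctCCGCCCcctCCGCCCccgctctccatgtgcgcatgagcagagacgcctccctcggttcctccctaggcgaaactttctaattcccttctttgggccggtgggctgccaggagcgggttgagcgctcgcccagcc
Hspg2: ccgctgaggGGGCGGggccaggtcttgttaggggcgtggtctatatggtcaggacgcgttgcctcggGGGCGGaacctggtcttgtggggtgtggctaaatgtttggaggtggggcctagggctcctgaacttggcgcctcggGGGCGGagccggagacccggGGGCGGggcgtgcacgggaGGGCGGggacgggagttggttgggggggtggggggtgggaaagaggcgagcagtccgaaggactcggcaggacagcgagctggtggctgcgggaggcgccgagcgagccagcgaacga

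The *Lama5* and *Hspg2* promoters were rich in GC, at 72.7% and 70.3%, against a median of 52.7% (quartiles 45.7% and 61.7%) over the 32851 promoters of the RefSeq table. They held 4 and 5 GC boxes on either strand, the *Lamb1* promoter held 2 and the *Lama2* promoter 1, and 35.7% of all promoters held at least 1. RefSeq promoters were matched for 6 of the 10 genes, the other two being *Nid1* (64.7% GC, 1 GC box) and *Lamb2* (44.0% GC, no GC box). Neither AACAAT, a core recognised by SOX factors and found in 10.7% of all promoters, nor TATAAA, found in 13.6%, occurs on either strand of these 6 windows.

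Of 46001 barcodes, 22567 held 1000 to 4500 detected genes and were retained, 5174 to 6135 per library, with 33649565 to 42011650 UMIs per library. The upper limit removed 7828 barcodes, which held 55139 UMIs of the 10 genes against 101771 in the retained cells. Levels and shares therefore leave out the most RNA-rich barcodes. The 21 clusters of the retained cells were named from marker lists, with the 10 genes and 31 other basement membrane and receptor genes left out of the features used for clustering. The classes were RT-like (228 cells), SV Sertoli-like (229), other Sertoli-like (5173), myoid-like (2140), pericyte-like (297), stromal-like (4548), Leydig-like (228), endothelial-like (72), macrophage-like (296) and germ-like (6962). Other Sertoli-like cells comprised a cluster led by *Clu* and *Inha* (2733 cells) and a shallower one led by *Tsx* and *Defb36* (2440 cells, median 2654 UMIs per cell against 8356). Stromal-like cells comprised a cluster rich in *Col1a1* and *Lum* (2868) and one rich in *Dlk1* and *Igf1* (1680). Between any 2 libraries, 20 to 43 barcodes were shared, at most 0.391% of the smaller library. Every marker on the RT, myoid, pericyte, stromal, endothelial and Sertoli lists had UMIs in the class named after it. Germ-like cells held UMIs of all these markers too, and the clusters were named from the same lists, so this is no test of the names. *Sox17* fell from 356 and 312 CPM in the RT-like cells of controls to 45.5 and 34.6 CPM in those of the deleted mice.

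A level is the count of a gene over all UMIs of a class in a library, on the CPM scale. A 3' count does not scale with transcript length, so levels are compared between genes without dividing by it. Dividing by transcript length left the leading α, β and γ chain of each class as it was in all 30 class and chain comparisons, and leaving out control 1 changed 3 of them. At the smallest sums, 1 UMI is up to 15.4 CPM in endothelial-like cells, 4.14 CPM in RT-like cells and 3.27 CPM in SV Sertoli-like cells. A floor was read from macrophage-like cells, in which UMIs of these genes can come from free RNA or doublets, in which the 10 genes averaged 0.533 to 14.8 CPM. Germ-like cells had first been planned as the class that should lack these genes. The macrophage-like cells of *Sox17*-cKO 1 stood apart, with myoid markers at 1012 CPM (92.9 to 192 CPM in the other libraries) and stromal markers at 1778 CPM (359 to 718 CPM), so some of their levels are given per library. Sertoli marker UMIs in germ-like cells differed by replicate number, where 12 Sertoli markers summed to 1549 and 1547 CPM in control 1 and *Sox17*-cKO 1 and to 290.1 and 294 CPM in control 2 and *Sox17*-cKO 2. Scrublet called 0 doublets in the first pair of libraries and 43 and 104 of the retained cells in the second, and free RNA and doublets were not told apart. In bulk sums of a class, more RNA per cell and more cells that express a gene cannot be told apart. Shares of cells are therefore given beside some levels, with each cell thinned to 2000 UMIs and shallower cells left out. This removed 485 of the 2440 *Tsx* and *Defb36* Sertoli-like cells, 16 of the 2733 *Clu* and *Inha* ones, 16 SV Sertoli-like, 8 RT-like, 5 myoid-like, 33 stromal-like, 1 endothelial-like and 1 pericyte-like cell, so the thinned shares describe the deeper cells.

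**Figure D1:**
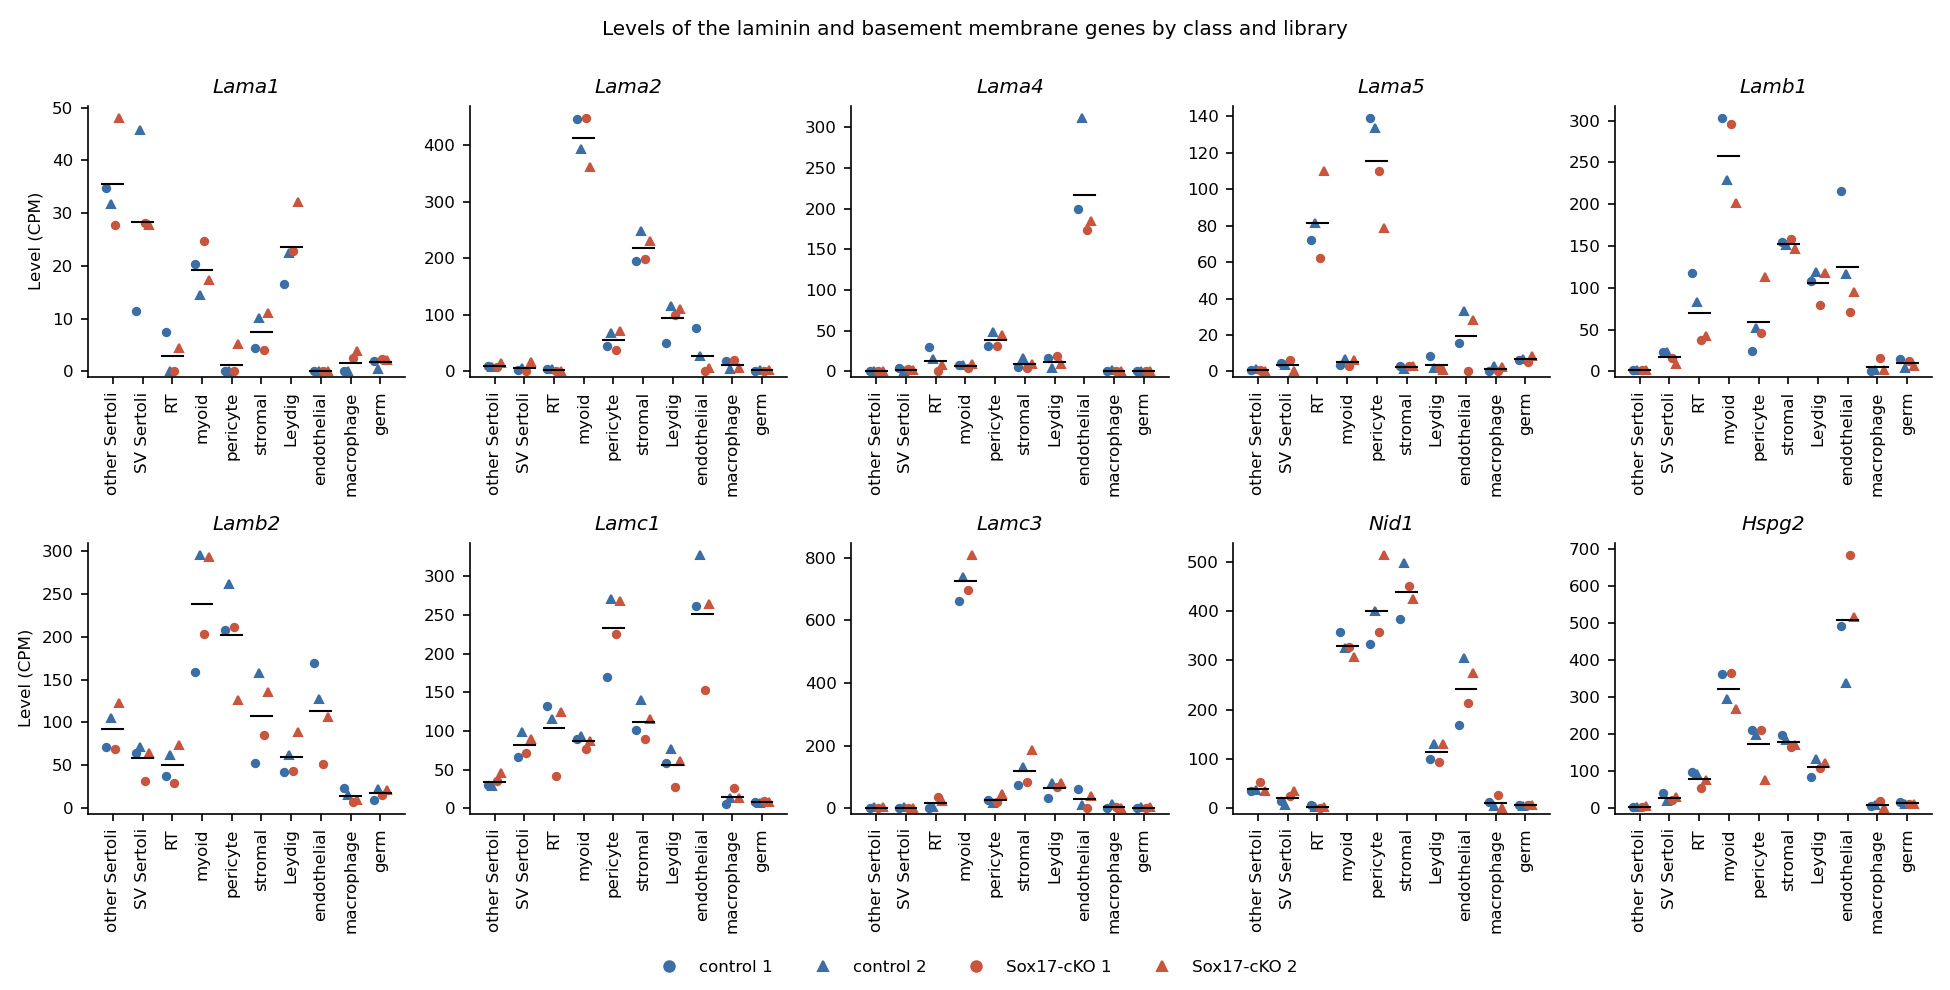
Levels of the 10 genes, in CPM on a linear axis scaled separately in each panel, by cell class. Circles are replicate 1 and triangles replicate 2, blue control and red *Sox17*-cKO, and the bar is the mean of the 4 libraries. Each α chain peaks in a different class: *Lama1* in other Sertoli-like cells (35.5 CPM), *Lama2* in myoid-like cells (412 CPM), *Lama4* in endothelial-like cells (217 CPM) and *Lama5* in pericyte-like cells (115 CPM).

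Each of the 4 α chains led in a different set of cells. *Lama1* (chromosome 17, 67697259 to 67822647, plus strand, 63 exons in its longest transcript) encodes the α1 chain, known from epithelial basement membranes of the embryo. In other Sertoli-like cells it stood at 34.7 CPM in control 1, 31.7 CPM in control 2, 27.7 CPM in *Sox17*-cKO 1 and 48.0 CPM in *Sox17*-cKO 2. SV Sertoli-like cells held 11.5, 45.7, 28.1 and 27.8 CPM in the same order, and 3 of these lie inside the range of the other Sertoli-like cells. Among the Sertoli-like cells it followed the clusters, at 44.7 ± 9.9 CPM (SD, n = 4 libraries) in the *Clu* and *Inha* cluster and 11.4 ± 5.0 CPM in the *Tsx* and *Defb36* cluster, and these ranges did not overlap. At equal depth, 9.05% of the cells of the first cluster held a *Lama1* UMI (95% interval 8.001% to 10.2%) and 1.84% of the second (1.29% to 2.54%), against 0.342% of macrophage-like cells. Without thinning the shares of the 2 clusters were 29.9% and 3.53%. Leydig-like cells (23.5 ± 6.4 CPM) and myoid-like cells (19.2 ± 4.3 CPM) followed, with ranges that overlapped each other. *Lama1* was close to absent from the other epithelium: RT-like cells of all libraries together held 5 UMIs, and endothelial-like cells held 0, which allows a level of up to 5.75 CPM.

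*Lama2* (chromosome 10, 26980036 to 27619758, minus strand, 65 exons) encodes the α2 chain, the α chain of the muscle basement membrane, whose loss causes a congenital muscular dystrophy. In myoid-like cells it stood at 446 CPM in control 1, 393 CPM in control 2, 447 CPM in *Sox17*-cKO 1 and 361 CPM in *Sox17*-cKO 2. The *Dlk1* and *Igf1* stromal cluster overlapped these at 381 to 460 CPM, whereas the *Col1a1* and *Lum* stromal cluster held 144 to 179 CPM. High *Lama2* was thus shared by the myoid-like cells and 1 of the stromal clusters. Leydig-like cells followed at 94.2 ± 30.2 CPM and pericyte-like cells at 45.1, 67.5, 38.5 and 70.99 CPM, with overlapping ranges. In these pericyte-like cells 11 stromal markers summed to 2141, 10498, 2975 and 6965 CPM in the same order, and the part of those markers' cells in their *Lama2* was not tested. Other Sertoli-like cells (9.92 ± 3.36 CPM) lay within the range of macrophage-like cells (17.6, 4.26, 20.98 and 5.24 CPM in the 4 libraries), and RT-like cells held 3 UMIs. In SV Sertoli-like cells *Lama2* stood at 2.30, 6.53, 0 and 16.7 CPM, and the summed level of 11 stromal markers in them was 59.9, 578, 84.3 and 472 CPM in the same libraries. The part of those markers' cells in this spread was not tested.

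*Lama4* (chromosome 10, 38965515 to 39110188, plus strand, 38 exons) encodes the α4 chain of vessel walls. Endothelial-like cells held 200.01 CPM in control 1, 311 CPM in control 2, 173 CPM in *Sox17*-cKO 1 and 185 CPM in *Sox17*-cKO 2. No other class came near: pericyte-like cells held 39.0 ± 9.3 CPM, and their highest library (49.1 CPM) lay below the lowest endothelial-like one. At equal depth 35.2% of endothelial-like cells (24.2% to 47.5%) and 5.74% of pericyte-like cells (3.38% to 9.04%) held a *Lama4* UMI (54 of 72 and 61 of 297 cells without thinning). RT-like cells held 30.3 and 15.6 CPM in the controls and 0 and 7.52 CPM in *Sox17*-cKO 1 and 2, from 22 UMIs, overlapping the stromal-like, myoid-like and Leydig-like cells. SV Sertoli-like and other Sertoli-like cells held 2.39 and 0.649 CPM on average.

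*Lama5* (chromosome 2, 180176373 to 180225859, minus strand, 79 exons) encodes the α5 chain, widespread in epithelia and mature vessels. It was high in 2 unrelated classes. Pericyte-like cells held 139 CPM in control 1, 134 CPM in control 2, 109.8 CPM in *Sox17*-cKO 1 and 78.9 CPM in *Sox17*-cKO 2. RT-like cells held 71.9 CPM in control 1, 81.4 CPM in control 2, 62.1 CPM in *Sox17*-cKO 1 and 109.8 CPM in *Sox17*-cKO 2, and these ranges overlapped. At equal depth 16.4% of RT-like cells (11.7% to 21.9%) and 19.6% of pericyte-like cells (15.2% to 24.6%) held a *Lama5* UMI (43.0% and 42.8% without thinning). Both classes of Sertoli cells stood near zero, with 5 UMIs in SV Sertoli-like cells and 27 in all other Sertoli-like cells. Endothelial-like cells held 19.2 ± 14.8 CPM from 12 UMIs, beside a summed level of 9 pericyte markers of 184 to 1523 CPM in that class, whose part was not tested. The GC-rich promoter shown above is that of this gene.

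The β chains were less selective, apart from a near absence of *Lamb1* in Sertoli cells. *Lamb1* (chromosome 12, 31265234 to 31329644, plus strand, 33 exons) encodes the β1 chain, which most laminins of the embryo carry. In myoid-like cells it stood at 302 CPM in control 1, 228 CPM in control 2, 296 CPM in *Sox17*-cKO 1 and 202 CPM in *Sox17*-cKO 2. The *Dlk1* and *Igf1* stromal cluster overlapped these at 244 to 338 CPM, and the *Col1a1* and *Lum* cluster lay below both at 91.9 to 126 CPM. Endothelial-like (125 ± 63 CPM), Leydig-like (106 ± 19 CPM), RT-like (69.9 ± 37.7 CPM) and pericyte-like cells (58.8 ± 38.1 CPM) followed, each overlapping the next. SV Sertoli-like cells held 23.0, 22.9, 15.6 and 9.26 CPM, in the same order of libraries, and other Sertoli-like cells 1.40, 1.94, 2.12 and 1.84 CPM. These do not overlap, and the second lay near the 0, 2.13 and 1.31 CPM of macrophage-like cells of control 1, control 2 and *Sox17*-cKO 2, while those of *Sox17*-cKO 1 held 15.7 CPM.

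*Lamb2* (chromosome 9, 108479736 to 108490530, plus strand, 33 exons) encodes the β2 chain, known from the kidney glomerulus and the neuromuscular synapse. It was the β chain of the Sertoli cells, at 71.1 CPM in control 1, 105 CPM in control 2, 69.2 CPM in *Sox17*-cKO 1 and 123 CPM in *Sox17*-cKO 2 in other Sertoli-like cells. At the valve, SV Sertoli-like cells held 64.5, 71.9, 31.2 and 64.8 CPM, and RT-like cells 37.8, 62.3, 29.0 and 73.7 CPM, which overlap. The highest levels were in myoid-like cells (238 ± 68 CPM) and pericyte-like cells (202 ± 56 CPM). As with *Lama1*, the *Clu* and *Inha* cluster (118 ± 36 CPM) lay above the *Tsx* and *Defb36* cluster (23.0 ± 7.1 CPM).

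*Lamb2* also differed between libraries by their replicate number. In myoid-like cells its share of the β chain UMIs was 34.4% (control) and 40.8% (*Sox17*-cKO) in replicates 1 but 56.4% and 59.2% in replicates 2. In stromal-like cells the shares were 25.4% and 35.2% against 51.0% and 48.0%. Replicates 1 were thus the lower ones in both genotypes. Replicates 1 and 2 differ in the Cell Ranger version that made their tables (6.0.2 and 6.1.2), and the version cannot be told apart from any other difference between the replicates. In other Sertoli-like cells, where *Lamb1* was near zero, the share was 97.0% to 98.5% in all libraries. Which β chain led therefore depended on the library in RT-like, myoid-like, stromal-like and endothelial-like cells. The leading β chain was *Lamb2* in all 4 libraries of both Sertoli-like classes and of pericyte-like cells, and *Lamb1* in all 4 of Leydig-like cells.

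**Figure D2:**
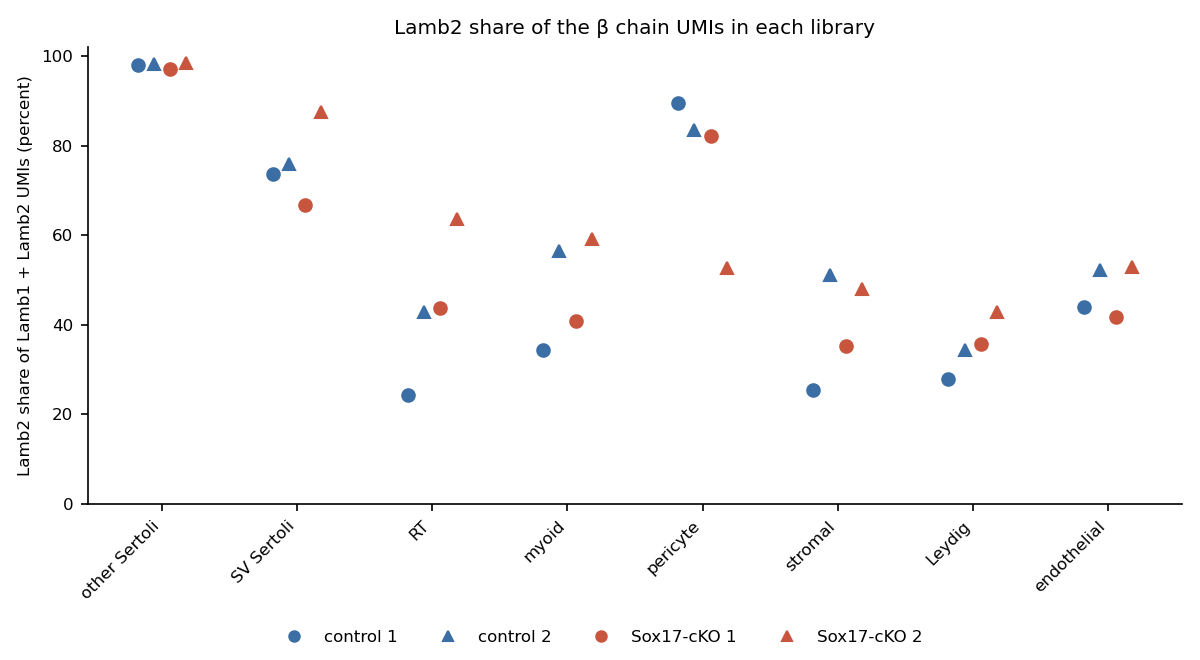
Share of *Lamb2* among the UMIs of *Lamb1* and *Lamb2*, in percent, in each library (circles replicate 1, triangles replicate 2, blue control, red *Sox17*-cKO) by cell class. In myoid-like and stromal-like cells both triangles lie above both circles, while in other Sertoli-like cells all 4 libraries lie between 97.0% and 98.5%.

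Of the γ chains, *Lamc1* was present in every somatic class of the tubule wall and vessels, and *Lamc3* was highest in myoid-like and stromal-like cells. *Lamc1* (chromosome 1, 153218922 to 153332786, minus strand, 28 exons) encodes the γ1 chain, the usual partner in laminin trimers. Endothelial-like cells held 262, 327, 153 and 264 CPM, in the same order, and pericyte-like cells 170.0, 271, 225 and 268 CPM. These overlapped, and the next classes, stromal-like (111 ± 22 CPM), RT-like (104 ± 42 CPM), myoid-like (86.7 ± 6.8 CPM) and SV Sertoli-like cells (81.4 ± 14.6 CPM), overlapped one another as well. In other Sertoli-like cells *Lamc1* stood at 29.7, 28.5, 35.1 and 45.02 CPM, below each SV Sertoli-like library (66.8, 98.003, 71.8 and 88.9 CPM).

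*Lamc3* (chromosome 2, 31887291 to 31946539, plus strand, 28 exons) encodes the γ3 chain. It gave the most UMIs of any laminin chain in myoid-like cells, at 662 CPM in control 1, 738 CPM in control 2, 696 CPM in *Sox17*-cKO 1 and 808 CPM in *Sox17*-cKO 2, and at equal depth 74.9% of these cells held a *Lamc3* UMI (73.0% to 76.7%, or 97.85% without thinning). The *Dlk1* and *Igf1* stromal cluster followed at 303 to 418 CPM (46.4% of cells thinned, 76.4% unthinned), and the *Col1a1* and *Lum* cluster held 27.9 to 56.5 CPM (6.79% and 18.55%). Leydig-like cells held 33.4, 80.1, 66.7 and 81.3 CPM, which overlap that cluster, and *Lamc3* was 53.9% ± 14.4 of their γ chain UMIs. Sertoli-like, germ-like and macrophage-like cells stood at or below 4.84 CPM on average. Levels in RT-like cells were 0 CPM in control 1, 5.19 CPM in control 2, 37.2 CPM in *Sox17*-cKO 1 and 24.1 CPM in *Sox17*-cKO 2, from 28 UMIs. In germ-like cells, which make no tubule wall, *Lamc3* stood at 0.510 and 0.257 CPM in replicates 1 and 3.86 and 3.43 CPM in replicates 2, and the summed level of 10 myoid markers there was 68.3 and 88.1 CPM against 176 and 172 CPM.

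Both linkers were higher in the mesenchymal and vascular classes than in the epithelia. *Nid1* (chromosome 13, 13437551 to 13512269, plus strand, 20 exons) gave more UMIs than any other of the 10 genes in stromal-like cells, at 384, 497, 450 and 424 CPM, with pericyte-like (401 ± 79 CPM), myoid-like (329 ± 21 CPM) and endothelial-like cells (241 ± 61 CPM) following in that order. Each of these overlapped the next apart from myoid-like and endothelial-like cells, whose ranges (306 to 358 and 169 to 305 CPM) did not overlap. Sertoli-like cells held far less, 35.3, 36.1, 52.8 and 35.2 CPM in the other Sertoli-like class and 13.8, 6.53, 24.97 and 35.2 CPM in the SV Sertoli-like one. RT-like cells held 5 *Nid1* UMIs in all libraries together, at 3.08 ± 3.24 CPM, where macrophage-like cells held 11.8, 5.33, 26.2 and 1.31 CPM. The RT-like cells thus had *Lama5*, *Lamb1*, *Lamb2*, *Lamc1* and perlecan without a *Nid1* level above the floor.

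*Hspg2* (chromosome 4, 137468769 to 137570630, plus strand, 97 exons) led in endothelial-like cells, at 492, 339, 684 and 516 CPM, and overlapped with myoid-like cells (323 ± 49 CPM). Stromal-like (179 ± 15 CPM) and pericyte-like cells (174 ± 66 CPM) overlapped each other. The epithelia were again graded: RT-like cells held 98.3, 91.7, 53.8 and 75.2 CPM, SV Sertoli-like cells 41.4, 19.6, 21.8 and 31.5 CPM, and other Sertoli-like cells 3.65, 2.29, 2.69 and 5.15 CPM, with no overlap between the 3. At equal depth 14.5% of RT-like cells (10.2% to 19.9%), 6.103% of SV Sertoli-like cells (3.29% to 10.2%) and 0.664% of other Sertoli-like cells (0.451% to 0.941%) held an *Hspg2* UMI, against 1.03% of macrophage-like cells (0.212% to 2.97%). By library, in the same order, the shares were 22.9%, 14.1%, 3.33% and 15.5% in RT-like cells. They were 3.23%, 7.89%, 6.82% and 7.25% in SV Sertoli-like cells, so the shares of these classes overlap. The *Hspg2* levels of macrophage-like cells were 5.88, 8.53, 18.4 and 1.31 CPM. Without thinning the shares in the 3 epithelial classes were 42.1%, 13.97% and 2.05%. By level, every RT-like and SV Sertoli-like library lay above every macrophage-like one, though the lowest SV library (19.6 CPM) only narrowly (18.4 CPM). By share at equal depth, macrophage-like cells held 3.33%, 0.962%, 1.67% and 0% in the same order. In control 1 the SV share (3.23%) was thus not above this floor. Other Sertoli-like cells did not rise above the floor by either measure. Of germ-like cells, 2.82% (2.44% to 3.24%) held an *Hspg2* UMI at equal depth. Their clusters, pooled over libraries, held 4.47 to 21.6 CPM, which reaches into the range of SV Sertoli-like cells but not of RT-like cells.

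Each chain was counted as a share of the UMIs of the chains of its kind among the 10 genes, which are 4 α, 2 β and 2 γ chains. *Lama3*, another α chain gene, is outside these shares and gave 136 UMIs in other Sertoli-like cells, beside 1138 of *Lama1*. Other Sertoli-like cells were *Lama1* (75.6% ± 0.4 of these α chain UMIs, SD over 4 libraries), *Lamb2* (97.9% ± 0.6 of β) and *Lamc1* (95.5% ± 4.7 of γ). SV Sertoli-like cells were likewise *Lama1* (66.8% ± 14.6), *Lamb2* (75.9% ± 8.7) and *Lamc1* (99.2% ± 1.6), from 64, 122 and 131 UMIs. RT-like cells were *Lama5* (83.6% ± 15.6), *Lamc1* (83.0% ± 21.4) and both β chains (*Lamb1* 56.3% ± 16.0). So both kinds of Sertoli-like cells had the same leading α, β and γ chains, and the RT-like cells, which adjoin the SV, had a different leading α chain.

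Mesenchymal cells shared the α chain and differed in γ. Myoid-like cells were *Lama2* (92.9% ± 0.8) and *Lamc3* (89.3% ± 1.0). The *Dlk1* and *Igf1* stromal cluster was also *Lama2* (93.3% ± 2.5) and *Lamc3* (80.9% ± 4.3), whereas the *Col1a1* and *Lum* cluster was *Lama2* (91.3% ± 2.5) with *Lamc1* (73.9% ± 4.4). Vascular classes combined *Lamc1* with other α chains: endothelial-like cells were *Lama4* (84.2% ± 12.9) and *Lamc1* (91.2% ± 8.8), and pericyte-like cells mixed *Lama5* (54.7% ± 11.2), *Lama2* (26.2% ± 6.8) and *Lama4* (18.4% ± 3.4) with *Lamb2* (77.0% ± 16.5) and *Lamc1* (89.3% ± 4.1). Transcript shares do not show which trimers are assembled or secreted.

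**Figure D3:**
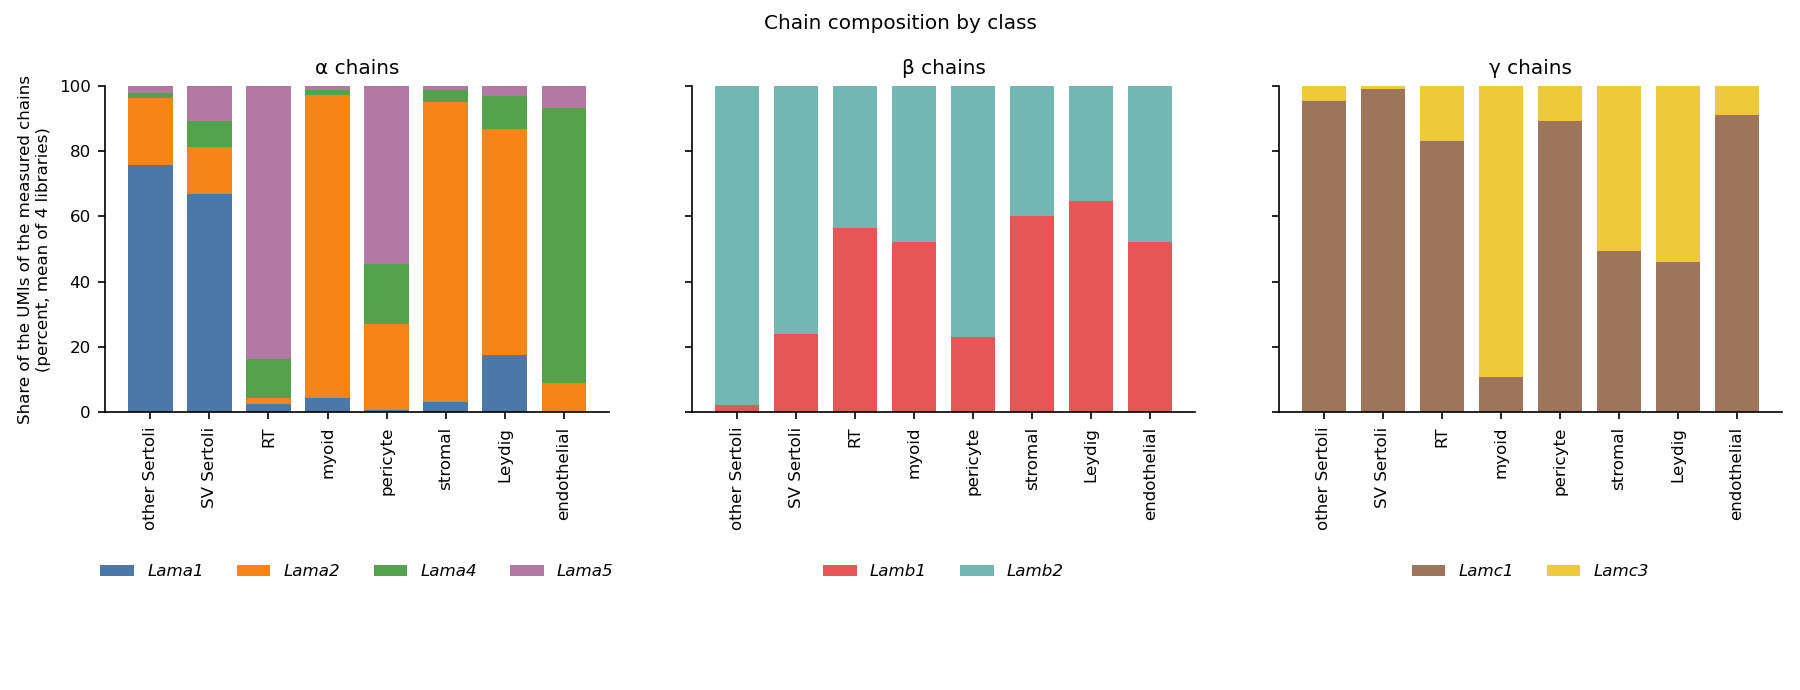
Stacked bars of the share of each chain, in percent of the UMIs of the α, β or γ chains among the 10 genes, as the mean of the 4 libraries in each of 8 classes. Blue (*Lama1*) fills most of the α bars of both Sertoli classes, orange (*Lama2*) those of myoid and stromal cells, green (*Lama4*) that of endothelial cells and purple (*Lama5*) that of RT cells, and *Lamc3* (yellow) fills 89.3% of the myoid γ bar.

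SV Sertoli-like cells were compared with other Sertoli-like cells to see whether the 10 genes differ at the valve. The study had already named *Hspg2* in describing the SV Sertoli cluster of these same libraries, so the *Hspg2* result is not independent. *Hspg2* was higher in SV Sertoli-like cells by 3.04 ± 0.36 on the log2 scale (SE; adjusted p = 1.44e-08), *Lamb1* by 3.23 ± 0.47 (adjusted p = 9.39e-07) and *Lamc1* by 1.21 ± 0.17 (adjusted p = 7.75e-07). *Lamb2* (-0.66 ± 0.16, adjusted p = 0.00185) and *Nid1* (-0.86 ± 0.27, adjusted p = 0.0127) were lower. *Lama1* (-0.44 ± 0.26, adjusted p = 0.22) and *Lama2* (-0.57 ± 0.47, adjusted p = 0.421) did not pass, and *Lama4*, *Lama5* and *Lamc3* were too low to test. That is 3 of 7 tested members higher and 2 lower, with a median log2 fold change of -0.44, where 28.9% of all 10537 genes tested passed (14.4% higher, 14.5% lower) and the median over all genes was -0.05.

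The decreases depended on which Sertoli-like cells stood for the tubule. Against the *Tsx* and *Defb36* cluster alone, *Lamb2* was higher in SV Sertoli-like cells (log2 fold change 1.15, adjusted p = 7.13e-05), as was *Lama1* (1.06, adjusted p = 0.0156), while *Nid1* did not pass (0.55, adjusted p = 0.176). Against the *Clu* and *Inha* cluster alone *Lama1* was lower (-0.70, adjusted p = 0.0215). The *Lamb2* call was also lost among cells under 10% mitochondrial UMIs (-0.29, adjusted p = 0.396), with a second clustering of the Sertoli-like cells (-0.33, adjusted p = 0.243), with no library block (-0.65, adjusted p = 0.146) and without *Sox17*-cKO 2 (-0.53, adjusted p = 0.0542). The *Nid1* call was lost among cells under 10% mitochondrial UMIs (-0.77, adjusted p = 0.146), with DESeq2 (-0.95, adjusted p = 0.0504), with no library block (-0.91, adjusted p = 0.0814) and without control 1 (-0.72, adjusted p = 0.103) or control 2 (-0.64, adjusted p = 0.103). The median mitochondrial share of a cell was 6.43% in SV Sertoli-like cells, 12.4% in the *Clu* and *Inha* cluster and 8.27% in the *Tsx* and *Defb36* cluster, and its part in the decreases was not tested beyond that subset. The increases of *Hspg2*, *Lamb1* and *Lamc1* passed in every alternative in which they could be tested, although that of *Lamc1* ranged from 0.95 against the *Clu* and *Inha* cluster alone to 2.76 against the *Tsx* and *Defb36* cluster alone. The SV class of the second clustering held 483 cells, of which 121 were among the 229. Beside these increases, 10 RT markers summed to 111 to 153 CPM in SV Sertoli-like cells against 21.5 to 37.8 CPM in the other Sertoli-like class, and 8 Leydig markers to 1049 to 1878 CPM against 25.3 to 140.1 CPM. *Krt7* and *Krt19* of the RT list and *Cyp17a1* and *Lhcgr* of the Leydig list had no UMIs in SV Sertoli-like cells. The part of RT and Leydig cells in the increases was not tested. The SV cluster itself was not found without integration, at a resolution of 0.8 or with the *Sox17*-cKO libraries integrated first.

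Among other genes of the basement membrane, the laminin α chain gene *Lama3*, the one other laminin chain reported here, did not pass in SV Sertoli-like cells (-0.19 ± 0.67, adjusted p = 0.879). Of the 6 collagen IV chains 5 were tested, and *Col4a5* (4.45 ± 0.28, adjusted p = 2.26e-15) and *Col4a2* (0.69 ± 0.17, adjusted p = 0.00169) were higher and *Col4a4* lower (-1.18 ± 0.28, adjusted p = 0.00126), though not against the *Tsx* and *Defb36* cluster alone (0.078, adjusted p = 0.89). Of 8 tested other components 3 were higher, *Tinagl1* (3.95 ± 0.51), *Ntn4*, a netrin built into laminin networks (1.15 ± 0.15), and *Sparc* (0.36 ± 0.07). Of 4 tested laminin receptors 3 were higher, led by *Bcam*, a receptor for the α5 chain (3.52 ± 0.41, adjusted p = 1.3e-08).

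RT-like cells were compared with other Sertoli-like cells, the epithelium of the rete against the Sertoli cells of the tubules. *Lama5*, near zero in the Sertoli cells, was higher in RT-like cells by 6.27 ± 0.35 on the log2 scale (adjusted p = 7.34e-12), *Lamb1* by 4.96 ± 0.36 (adjusted p = 4.43e-10), *Hspg2* by 4.29 ± 0.28 (adjusted p = 6.95e-11) and *Lamc1* by 1.38 ± 0.21 (adjusted p = 1.25e-05). *Lamc3* also passed (2.87 ± 0.73, adjusted p = 0.00243), from 28 and 48 UMIs, and its fold ranged from 1.82 to 3.89 over the alternatives. Its RT-like levels were at most 5.19 CPM in controls and at least 24.1 CPM in *Sox17*-cKO libraries, so the difference rests mostly on the latter. *Lama1* (-3.94 ± 0.45, adjusted p = 2.68e-07) and *Nid1* (-3.94 ± 0.42, adjusted p = 9.95e-08) were lower in RT-like cells, as were *Lamb2* (-1.07 ± 0.17, adjusted p = 2.44e-05) and *Lama2*, for which RT-like cells held 3 UMIs and no fold is given, and whose call was lost without *Sox17*-cKO 2 (adjusted p = 0.0553). All 9 members tested passed, 5 higher and 4 lower, where 53.8% of all 11370 genes did (25.2% higher, 28.6% lower), with a median of 1.38 against -0.10 over all genes. *Lamb2* did not pass among cells under 10% mitochondrial UMIs (-0.34, adjusted p = 0.252), and its sign turned (0.88, adjusted p = 0.00231) when only the *Tsx* and *Defb36* cluster stood for the Sertoli cells. RT-like cells carried a summed level of Sertoli markers of 1085 to 2141 CPM, against 19811 to 23451 CPM in other Sertoli-like cells.

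Of the collagen IV chains, *Col4a5* (5.50 ± 0.20), *Col4a3* (1.98 ± 0.27) and *Col4a4* (1.69 ± 0.21), which together form the collagen IV network of the kidney glomerulus, were higher in RT-like cells, 3 of 5 tested. *Lama3*, the one laminin chain gene outside the members that is reported here, was lower, with 0 UMIs in RT-like cells against 136 in other Sertoli-like cells. Of 9 tested other components 4 were higher and 3 lower, with *Col15a1* (5.09 ± 0.41) and agrin, *Agrn* (3.62 ± 0.33), higher, whereas *Ntn4* was lower (-5.07 ± 0.44, 4 UMIs). Of 5 tested receptors 3 were higher and 1 lower, with *Bcam* (7.26 ± 0.20, adjusted p = 1.24e-16) and the integrin α3 gene *Itga3* (6.095 ± 0.54) higher and the integrin α6 gene *Itga6* lower (-1.31 ± 0.18), which turned to higher (0.64, adjusted p = 0.0137) against the *Tsx* and *Defb36* cluster alone. *Bcam* is one of the 10 leading genes of the RT-like cluster, though it was not among the features used to form it.

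Against SV Sertoli-like cells, RT-like cells were higher in *Lama5* (4.62 ± 0.45, adjusted p = 1.39e-09), *Lamb1* (1.99 ± 0.31, adjusted p = 4.24e-06) and *Hspg2* (1.45 ± 0.26, adjusted p = 4.28e-05), while *Lamb2* (-0.16 ± 0.25, adjusted p = 0.642) and *Lamc1* (0.36 ± 0.22, adjusted p = 0.202) did not pass. These are 3 of the 5 members tested, where 44.5% of 5897 genes passed (22.9% higher, 21.6% lower). The members that were high in SV Sertoli-like cells over other Sertoli-like cells therefore included *Lamb1* and *Hspg2*, which were higher still in RT-like cells. *Ntn4* went the other way, with 4 UMIs in RT-like cells and 230 in SV Sertoli-like cells (-5.82 ± 0.40, adjusted p = 2e-12). *Col4a4* (3.15 ± 0.33), *Agrn* (3.88 ± 0.48) and *Bcam* (3.95 ± 0.24) were also higher in RT-like cells. *Lama1* could not be tested here because of its low counts.

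**Figure D4:**
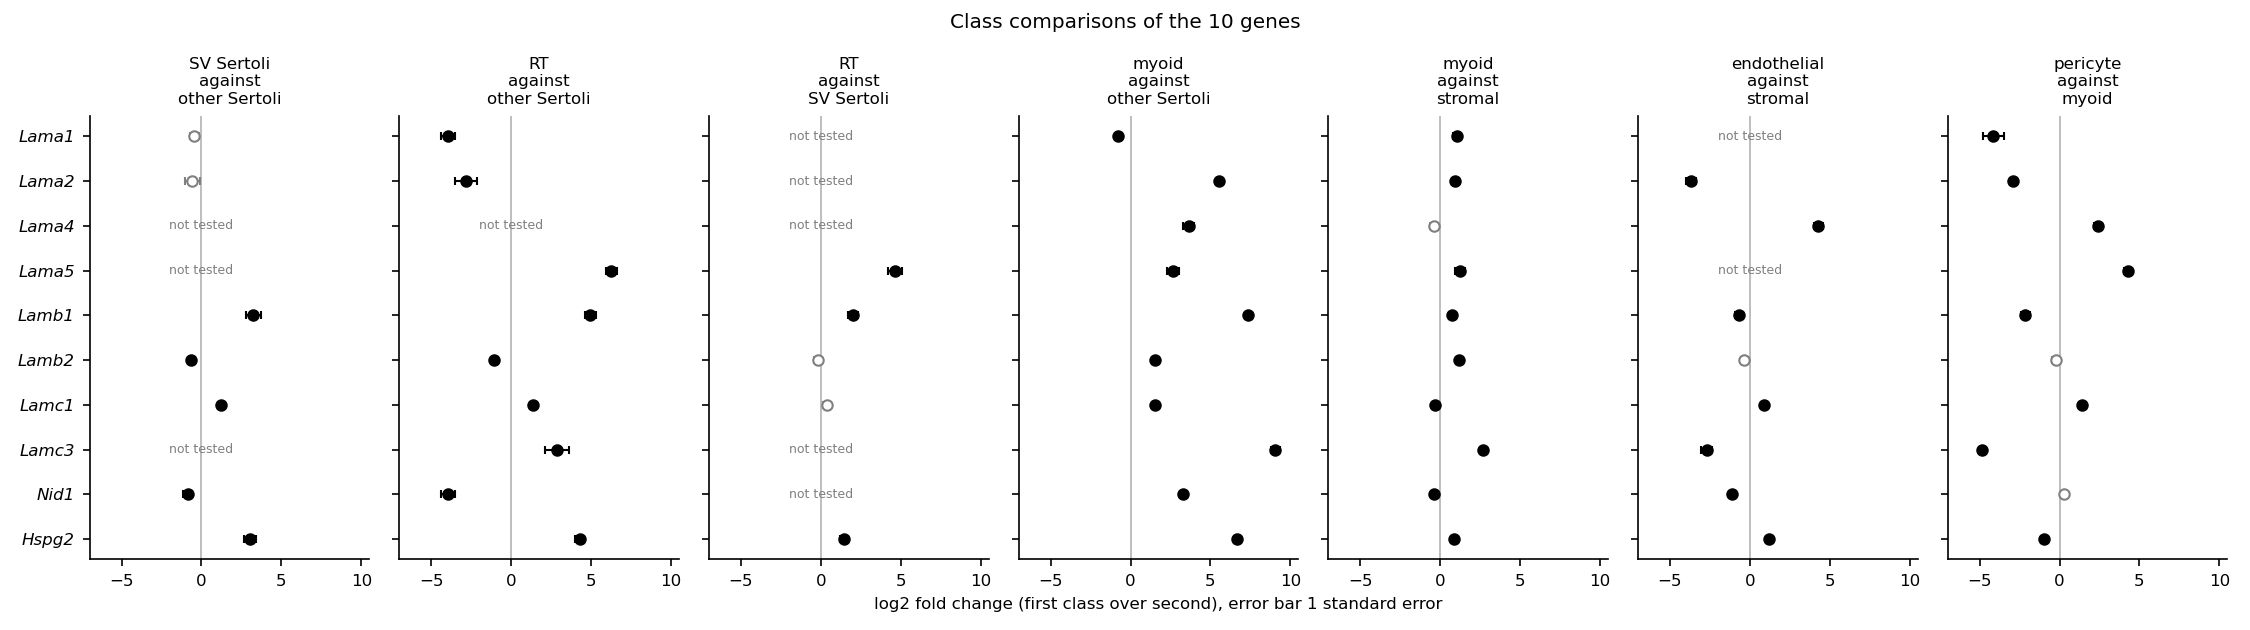
Log2 fold changes of the 10 genes in 7 comparisons of classes (first class over second), with error bars of 1 standard error. Filled points passed an adjusted p of 0.05, open points did not, and genes too low to test are named so. *Lama5*, *Lamb1* and *Hspg2* lie right of zero in both RT panels, and *Lamc3* lies furthest right in the panel of myoid against other Sertoli cells (9.07).

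Myoid-like cells were compared with other Sertoli-like cells because both build the tubule wall. *Lamc3* differed the most of the members, higher in myoid-like cells by 9.07 ± 0.31 on the log2 scale (adjusted p = 4.88e-12), followed by *Lamb1* (7.35 ± 0.14), *Hspg2* (6.69 ± 0.16) and *Lama2* (5.55 ± 0.16). *Lama4* (3.64 ± 0.33), *Nid1* (3.26 ± 0.12), *Lama5* (2.68 ± 0.37), *Lamb2* (1.55 ± 0.08) and *Lamc1* (1.53 ± 0.12) were higher too, with adjusted p between 7.39e-12 and 1.58e-05. Pooled over libraries, *Lama5* stood at only 5.91 CPM in myoid-like cells, within the 0.86 to 9.38 CPM of the germ-like clusters. *Lama1* was the one member lower in myoid-like cells (-0.81 ± 0.16, adjusted p = 0.000382), and it no longer passed among cells under 10% mitochondrial UMIs (-0.21, adjusted p = 0.435). Thus 9 of 10 members were higher and 1 lower, where 73.8% of 12314 genes passed (36.1% higher, 37.7% lower), with a median of 3.45 against -0.04 over all genes. All 6 collagen IV chains were higher, *Col4a3* by 7.05 ± 0.15 and *Col4a4* by 6.75 ± 0.14. Of the receptors 6 of 7 tested were higher, with *Itga1* (9.19 ± 0.17) and the muscle laminin receptor gene *Itga7* (7.04 ± 0.20), and *Itga6* was lower (-4.05 ± 0.14). Of 13 other components 10 were higher and 3 lower, including *Col18a1*, the source of endostatin (-5.04 ± 0.15).

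Against stromal-like cells, myoid-like cells were higher in *Lamc3* by 2.69 ± 0.13 (adjusted p = 2.63e-09), *Lamb2* by 1.21 ± 0.09 (adjusted p = 2.2e-07), *Lama5* by 1.22 ± 0.31, *Lama1* by 1.07 ± 0.26, *Lama2* by 0.94 ± 0.10, *Hspg2* by 0.86 ± 0.08 and *Lamb1* by 0.75 ± 0.08, and lower in *Nid1* (-0.38 ± 0.08, adjusted p = 0.00177) and *Lamc1* (-0.34 ± 0.08, adjusted p = 0.00467). *Lama4* did not pass (-0.39 ± 0.23, adjusted p = 0.206). These are 7 members higher and 2 lower of 10 tested, where 39.7% of 12064 genes passed (19.6% higher, 20.1% lower), with a median of 0.90 against -0.01. Several of these calls depended on the stromal cluster: against the *Dlk1* and *Igf1* cluster alone, *Lama2* (0.06, adjusted p = 0.484), *Lama1* (0.21, adjusted p = 0.508), *Lamb1* (-0.07, adjusted p = 0.426) and *Lamc1*, with its sign turned (0.15, adjusted p = 0.227), did not pass, and *Lama4* passed as lower (-0.92, adjusted p = 0.000515), while *Lamc3*, *Lamb2* and *Hspg2* passed in every alternative run. The size of the *Lamc3* difference ranged from 1.19 to 4.05 over the alternatives. Pooled over libraries, *Lama5* stood at only 5.91 CPM in myoid-like cells, 2.58 CPM in the *Col1a1* and *Lum* cluster and 2.14 CPM in the *Dlk1* and *Igf1* cluster. Without control 2, *Lama5* (0.69, adjusted p = 0.132) and *Lamc1* (-0.23, adjusted p = 0.0564) did not pass. *Lama5* was also lost with DESeq2 (1.02, adjusted p = 0.0997), and with no library block both decreases kept their size and lost the call, *Nid1* at -0.38 (adjusted p = 0.0708) and *Lamc1* at -0.32 (adjusted p = 0.25). Among the lists, 4 of 6 collagen IV chains were higher and 2 lower, 8 of 13 other components were lower, led by *Hmcn1* (-3.74 ± 0.15) and *Sparc* (-1.29 ± 0.05), and 6 of 7 tested receptors were higher, led by *Itga7* (3.59 ± 0.15).

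Endothelial-like cells differed from stromal-like cells in chain choice. *Lama4* was higher by 4.28 ± 0.28 on the log2 scale (adjusted p = 1.82e-31), *Hspg2* by 1.18 ± 0.18 (adjusted p = 4.48e-09) and *Lamc1* by 0.88 ± 0.19 (adjusted p = 8.74e-05), whereas *Lama2* (-3.68 ± 0.33), *Lamc3* (-2.69 ± 0.34), *Nid1* (-1.12 ± 0.19) and *Lamb1* (-0.68 ± 0.23, adjusted p = 0.0132) were lower. The *Lamb1* call was lost under 6 of the 16 alternatives. These included leaving out control 2 (-0.69, adjusted p = 0.0642), *Sox17*-cKO 1 (-0.54, adjusted p = 0.097) or *Sox17*-cKO 2 (-0.62, adjusted p = 0.102) and comparing with the *Col1a1* and *Lum* cluster alone, where the difference was smallest of the 6 (-0.26, adjusted p = 0.473). *Lamb2* did not pass (-0.34 ± 0.24, adjusted p = 0.343), but passed without control 1 (-0.68, adjusted p = 0.0304). Of 8 members tested, 3 were higher and 4 lower, where 26.4% of 10717 genes passed (10.8% higher, 15.6% lower), with a median of -0.51 against -0.15. Of 6 collagen IV chains 4 were lower and 1 higher, with *Col4a4* at -5.76 ± 0.26 and *Col4a3* at -4.93 ± 0.34, and of 8 tested receptors 4 were higher and 2 lower, with *Itga6* at 4.88 ± 0.26 and *Bcam* at 3.53 ± 0.30.

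Pericyte-like cells, the contractile cells of vessels, were compared with myoid-like cells, the contractile cells of the tubule. *Lama5* was higher in pericyte-like cells by 4.30 ± 0.25 (adjusted p = 4.63e-09), *Lama4* by 2.42 ± 0.27 (adjusted p = 4.31e-06) and *Lamc1* by 1.41 ± 0.14 (adjusted p = 1.38e-06). Lower were *Lamc3* (-4.85 ± 0.19, adjusted p = 1e-10), *Lama2* (-2.89 ± 0.18), *Lamb1* (-2.13 ± 0.27), *Hspg2* (-0.94 ± 0.18, adjusted p = 0.000676) and *Lama1*, for which pericyte-like cells held 2 UMIs and no fold is given. *Lamb2* (-0.25 ± 0.20, adjusted p = 0.406) and *Nid1* (0.25 ± 0.14, adjusted p = 0.187) did not pass. These are 3 members higher and 5 lower of 10 tested, where 30.6% of 8880 genes passed (16.1% higher, 14.4% lower), with a median of -0.60 against 0.02. The 10 myoid markers summed to 30760.0 to 49841 CPM in pericyte-like cells, above the 22524 to 29320 CPM of myoid-like cells. *Col4a3* (-6.32 ± 0.27) and *Col4a4* (-5.86 ± 0.30) were lower in pericyte-like cells and *Tinagl1* (5.05 ± 0.14), *Col18a1* (5.19 ± 0.34) and *Bcam* (2.85 ± 0.20) higher.

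To see whether deleting *Sox17* changed the 10 genes, they were compared between genotypes within each class. In RT-like cells *Lamb1* stood at 117 and 83.1 CPM in the controls and 37.2 and 42.1 CPM in *Sox17*-cKO 1 and 2, and the genotypes did not overlap. The log2 fold change was -1.32 ± 0.37 (adjusted p = 0.419), which did not pass. *Lamc3* did not overlap in the opposite direction, with 3 UMIs in both controls together and 25 in both *Sox17*-cKO libraries (adjusted p = 0.479), and no fold is given for so few control UMIs. The summed level of the 10 myoid markers in the same RT-like cells was 106 and 374 CPM in controls and 236 and 299 CPM in *Sox17*-cKO libraries, and its part in the *Lamc3* difference was not tested. *Hspg2* (-0.54 ± 0.34), lower in *Sox17*-cKO, was the third of the tested members without overlap, and *Lama2* and *Lama4*, too low to test, also lay lower without overlap. The 12 endothelial markers in these cells summed to 533 and 511 CPM in controls and 397 and 304 CPM in *Sox17*-cKO libraries, and their part in the lower levels was not tested.

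None of the 6 members tested in RT-like cells passed an adjusted p of 0.05 in edgeR, where 6 of 6799 genes (0.0882%) did, all lower in *Sox17*-cKO, whereas at an unadjusted p under 0.05 there were 391, and 21 passed in DESeq2. The 3 members without overlap between genotypes stand beside 33.4% of all genes tested in this class. *Lama5*, the leading α chain of the RT, gave 0.18 ± 0.36 and *Lamc1* -0.49 ± 0.44, both with adjusted p = 0.997. *Lamb1* kept its sign in all 14 alternatives (-1.57 to -1.05). These reuse the same libraries, whose *Lamb1* levels did not overlap between genotypes, so the kept sign adds no support. With the replicate number, which coincides with the Cell Ranger version, as a block, *Lamb1* (-1.24, adjusted p = 0.00922) and *Lamc3* (adjusted p = 0.0068) passed, 2 of 6 members beside 275 of all genes (4.04%). Among the lists in RT-like cells, *Col4a4* (1.76 ± 0.33, 58 UMIs in controls and 208 in *Sox17*-cKO, adjusted p = 0.139) and *Col15a1* (1.64 ± 0.44, adjusted p = 0.386) were the nearest to the threshold.

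In the other classes no gene at all passed between genotypes in edgeR, at 0% of 5661 genes in SV Sertoli-like, 12009 in other Sertoli-like, 11411 in myoid-like, 12813 in stromal-like and 2736 in endothelial-like cells, with 89, 91, 81, 59 and 92 genes at an unadjusted p under 0.05 and 0, 0, 0, 1 and 2 genes called by DESeq2. The replicate block gave 6 genes in myoid-like cells (0.0526%), 6 in endothelial-like cells (0.219%) and 0 in the other 3 classes, none of them a member. In SV Sertoli-like cells *Lamc1* (-0.05 ± 0.37), *Lama1* (0.0021 ± 0.53), *Hspg2* (-0.24 ± 0.54) and *Lamb2* (-0.48 ± 0.43) were tested, and none of their levels separated the genotypes, where 25.9% of genes did. *Lamb1* (lower) and *Nid1* (higher), too low to test there, did separate them, at the levels given above. In myoid-like cells the 10 members lay between -0.21 (*Lamc1*) and 0.19 (*Lama1*), with standard errors of 0.22 to 0.52, and 1 of 10 separated the genotypes (*Lamc1*, lower in *Sox17*-cKO), beside 23.5% of genes. In other Sertoli-like cells 1 of 8 did (*Lamc1*, higher), beside 20.3%, in stromal-like cells 1 of 10 (*Hspg2*, lower), beside 18.8%, and in endothelial-like cells 4 of 6, beside 30.0%.

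In those endothelial-like cells, from 8 and 24 control cells and 14 and 26 *Sox17*-cKO cells, *Lamb1* stood at 215 and 117 CPM against 71.4 and 95.4 CPM (-0.85 ± 0.49), *Lamb2* at 169 and 128 CPM against 51.0 and 107 CPM (-0.78 ± 0.50) and *Hspg2* at 492 and 339 CPM against 684 and 516 CPM (0.55 ± 0.39). *Lama4* was the other (-0.55 ± 0.41). *Sox17*, an endothelial transcription factor gene, was itself lower there, at 508 and 344 CPM in controls and 102.02 and 101 CPM in *Sox17*-cKO libraries. By in situ hybridization at a later age, however, the study reported *Sox17* signals in the interstitial vasculature as conserved in *Sox17*-cKO mice. Pericyte markers summed to 1523 and 511 CPM in controls against 184 and 314 CPM. The part of *Sox17* and of pericytes in these differences was not tested.

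**Figure D5:**
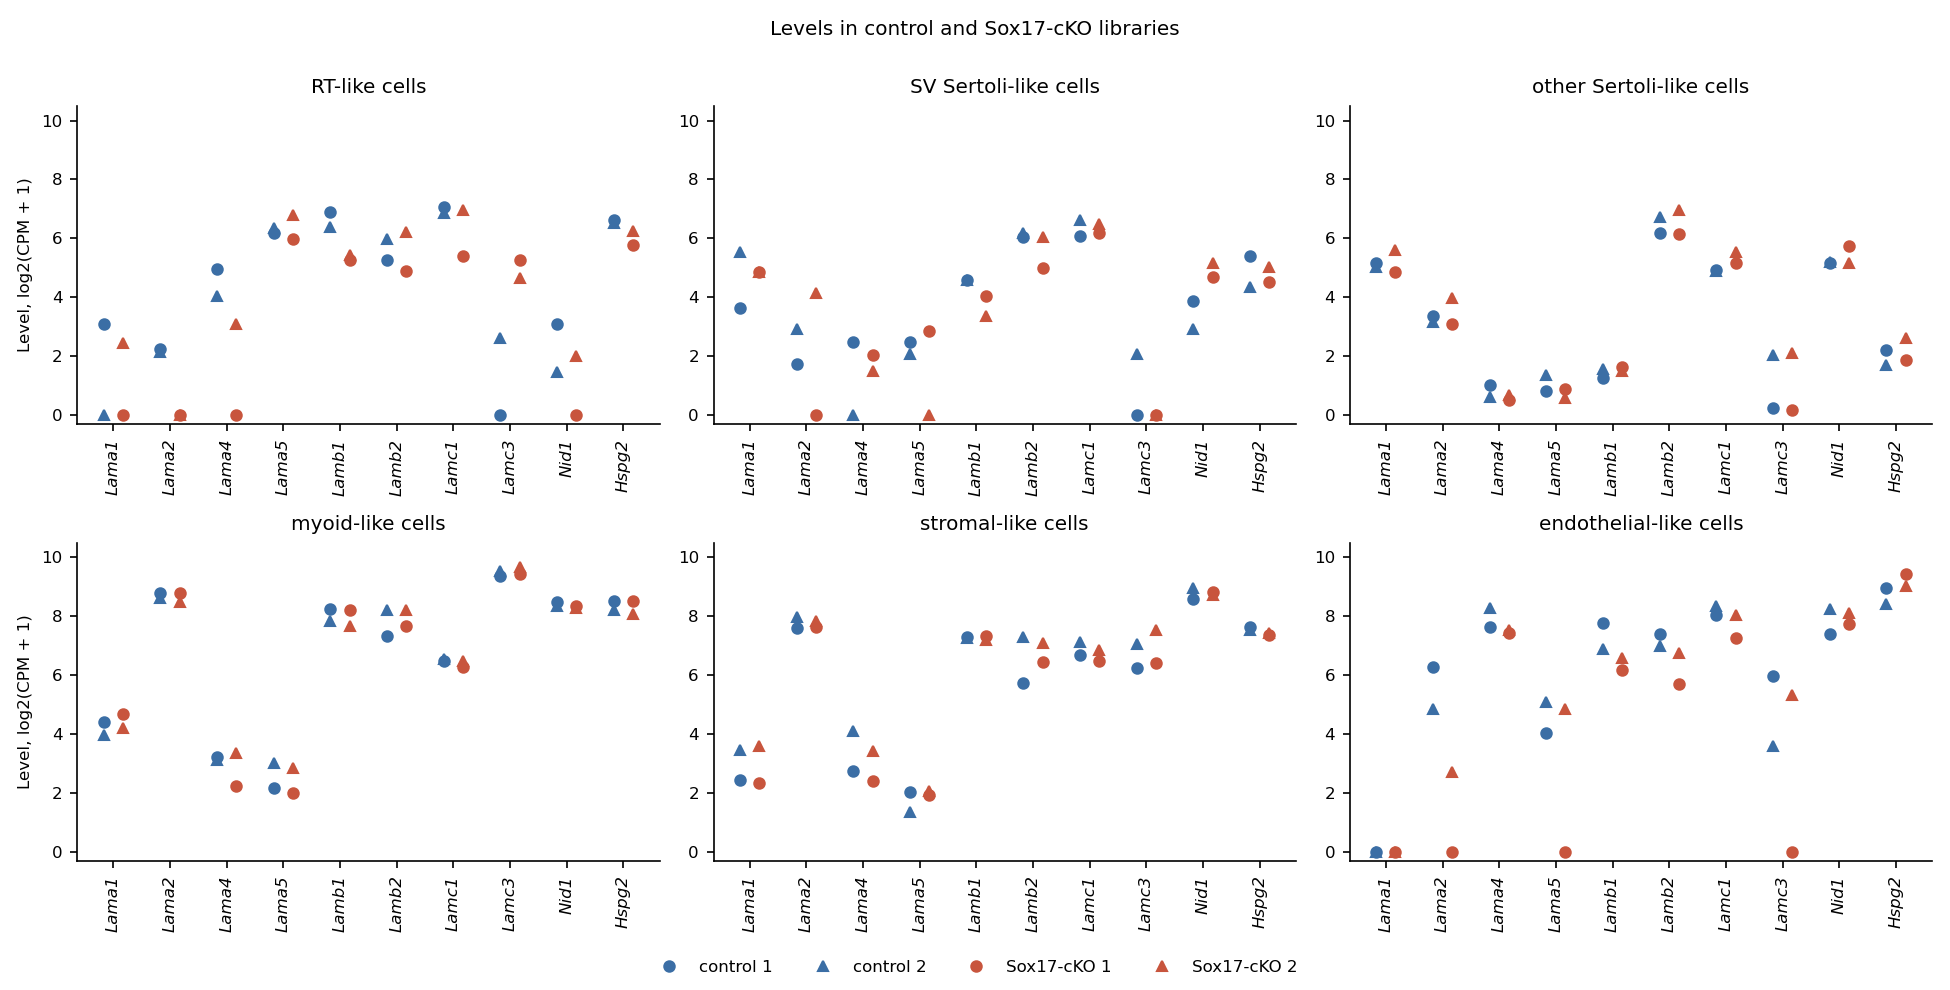
Levels of the 10 genes in control (blue) and *Sox17*-cKO (red) libraries, as log2(CPM + 1), in 6 classes; circles are replicate 1 and triangles replicate 2. In the RT panel both red points of *Lamb1* lie below both blue ones and both red points of *Lamc3* above, while in the myoid panel *Lamc1* is the one gene whose colours do not overlap.

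Across the 10 named classes, the levels of *Lamb1* and *Hspg2* ran most closely together of any pair of members (Pearson r = 0.96 over class means of log2(CPM + 1)), and *Lama2* ran with *Lamc3* (r = 0.90) and *Nid1* (r = 0.84) and *Lama4* with *Lamc1* (r = 0.85). *Lama1* and *Lama5* were the most opposed pair (r = -0.575). These are descriptions over 10 points that come from the same 4 libraries. Outside the lists, 10868 genes reached 20 CPM in at least 1 class. The genes most like *Lama1* were *Dync1i1* (r = 0.98), *L3mbtl4* and *Drd4*, those most like *Lama2* were *D630033O11Rik* (r = 0.97), *Tmem45a* and *Tcf21*, and those most like *Lama4* were *Vamp7* (r = 0.96), *Emcn* and *Npr3*. *Lama5* was nearest to *Ppp1r1a* (r = 0.92), *Nrip2* and *Cdh6*, *Lamb1* to *Ghr* (r = 0.96), *Praf2* and *Heg1*, and *Lamb2* to *Msrb3* (r = 0.98), *Gm26632* and *Dmd*. *Lamc1* was nearest to *Zfp362* (r = 0.96), *Nfib* and *Cavin1*, and *Lamc3* to *2600014E21Rik* (r = 0.96), *Wisp1* and *Gli1*. *Nid1* was nearest to *Mgp* (r = 0.97), *Sec13* and *Rftn2*, and *Hspg2* to *Kctd17* (r = 0.97), *Bmp1* and *Csad*. *Tcf21* and *Emcn* are on the stromal and endothelial marker lists that named these classes.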

How the data were processed

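Single-cell RNA-seq libraries of P14 proximal testis from 2 control and 2 *Sox17*-cKO pools of 3 pups were used. The authors deposited UMI counts per gene and cell barcode, made with Cell Ranger 6.0.2 (replicates 1) or 6.1.2 (replicates 2) on mm10. Cells with 1000 to 4500 detected genes were kept. The study's limit of 1% mitochondrial UMIs left 212 cells and was not applied. Libraries were integrated by canonical correlation in Seurat 5.3.0 (2000 variable features, 20 components, resolution 0.4). A cluster took the name of its best marker list, and the limits for this were set after the data were seen: a median mitochondrial share over 20% or fewer than 50 cells left it unnamed. Scrublet in Scanpy 1.11.5 called 0, 208, 0 and 330 doublets in the controls and then the *Sox17*-cKO libraries, so it did not work in 2 libraries, and doublets were kept.

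Counts were summed per library and class. edgeR 4.0.16 (TMM, filterByExpr, quasi-likelihood test, Benjamini-Hochberg adjustment over all genes, threshold 0.05) compared classes with the library as a block, and genotypes, 2 against 2 libraries, without a block. Errors of fold changes are standard errors, equal to the size of the log2 fold change over the root of F. Errors of levels and shares are SDs over libraries, and intervals of shares of cells are exact binomial at 95%, both intervals and floors (3 UMIs) covering counting error only. These intervals pool the cells of all libraries and leave out the spread between libraries. Since cells define the classes, class comparisons describe the classes as clustered. DESeq2 1.42.0 and the other alternatives are given in the closing section. The tests were also run on simulated counts, in which libraries differed only in size and far fewer genes changed than the class comparisons called. That run therefore does not cover the setting of those comparisons.

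The 10 genes were named in every comparison in which they were tested, from each of 4 lists (31 genes) up to 3 with the smallest adjusted p were named, and for each of the 10 genes the 3 others of highest Pearson r across classes, among genes of at least 20 CPM in 1 class. The genes and lists were chosen with earlier results of these data known. Promoters came from RefSeq (GRCm38.p6), and gene positions from GENCODE on GRCm38. One gene of these lists is not reported here.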

Additional observations from a re-analysis of the deposited data

Results flagged for a closer look

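In 99 levels of a gene in a class with 4 libraries, 7 had 1 library far from the other 3, measured by its gap over the range, and chance gives about 1 in 20. With more than 10 UMIs behind them were *Nid1* in other Sertoli-like cells of *Sox17*-cKO 1, at 52.8 CPM against 35.2 to 36.1 CPM in the other libraries, and *Hspg2* in pericyte-like cells of *Sox17*-cKO 2, at 76.2 CPM against 198 to 212 CPM. The other 5 rest on 1 to 6 UMIs: *Lamb1* in macrophage-like cells of *Sox17*-cKO 1 (15.7 CPM), *Lama5* in Leydig-like cells of control 1 (8.34 CPM), *Lama1* in pericyte-like cells of *Sox17*-cKO 2 (5.26 CPM), *Lamc3* in SV Sertoli-like cells of control 2 (3.27 CPM) and *Lama4* in macrophage-like cells of control 2 (2.13 CPM).

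In 3 cases the genotypes separated in opposite directions in 2 classes, and the difference was not tested. Within a single class 18.8% to 33.4% of all genes tested separated the genotypes. How many of all genes did so in opposite directions was not counted. *Lamc1* was higher in *Sox17*-cKO in other Sertoli-like cells and lower in myoid-like cells, a difference of 0.55 between the log2 fold changes. *Hspg2* was higher in endothelial-like cells and lower in RT-like cells (difference 1.09) and in stromal-like cells (difference 0.80). Both *Hspg2* cases rest on the same endothelial-like levels, which come from 8 and 24 control cells.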

How the results depend on the processing

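Against the *Tsx* and *Defb36* Sertoli cluster alone, signs turned in the SV comparison for *Lama1* (1.06), *Lamb2* (1.15), *Nid1* (0.55) and *Col4a4* (0.078) and in the RT comparison for *Lamb2* (0.88) and *Itga6* (0.64). Against the *Dlk1* and *Igf1* stromal cluster alone they turned in myoid-like cells for *Lamb1* (-0.0701), *Lamc1* (0.15) and *Sparc* (0.0217), and in endothelial-like cells for *Sparc* (0.0041). Both splits were chosen after seeing the data, and the cause was not tested. The SV comparison called 1310 of 11142 genes with a second clustering of the Sertoli-like cells and 1680 of 10537 without the library block. In the main setting 28.9% of genes passed. Of the members tested, 2 of 5 passed under 10% mitochondrial UMIs and 3 of 7 with no library block. RT-like against SV Sertoli-like cells gave 1715 of 5897 genes with DESeq2, and 7 of 10 members passed without a filter on low counts. In the main setting of that comparison 44.5% of genes passed. Myoid-like against stromal-like cells gave 2414 of 12064 genes without the library block. No SV cluster was found without integration, at resolution 0.8 or with the *Sox17*-cKO libraries first, so these gave no value for it.

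Between genotypes, RT-like cells gave 16 genes under 10% mitochondrial UMIs, 21 with DESeq2 and 99 without the filter, SV Sertoli-like and myoid-like cells 2 each without the filter, stromal-like cells 1 with DESeq2 and 7 without the filter, and endothelial-like cells 2 and 12. Leaving out 1 library in turn gave 11 to 106 genes in RT-like, 0 to 6 in SV Sertoli-like, 0 to 12 in myoid-like, 0 to 6 in stromal-like and 2 to 16 in endothelial-like cells. The replicate number coincides with the Cell Ranger version and no source states a pairing of animals, and the deviations of same-numbered libraries correlated at r = 0.355 in RT-like, 0.405 in SV Sertoli-like, 0.503 in other Sertoli-like, 0.474 in myoid-like, 0.591 in stromal-like and 0.153 in endothelial-like cells. With the replicate block 275 of 6799 genes (4.04%) passed in RT-like cells, and 6 each in myoid-like and endothelial-like cells. Of 6 members tested in RT-like cells 2 passed, *Lamb1* (-1.24, adjusted p = 0.00922) and *Lamc3* (adjusted p = 0.0068). Of the 6 classes compared between genotypes, low UMI sums limit endothelial-like, RT-like and SV Sertoli-like cells most.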

Other observations

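Laminin chains were also read in cells outside the comparisons. Among germ-like cells, the cluster led by *Egr4*, *Trim71* and *Zbtb16*, the last a marker of undifferentiated spermatogonia, held *Lamb1* at 58.2 CPM in control 1, 23.3 CPM in control 2, 59.6 CPM in *Sox17*-cKO 1 and 31.5 CPM in *Sox17*-cKO 2, while *Lamb1* in the other germ-like clusters averaged 1.98 to 14.2 CPM. A cluster left without a name, led by mitochondrial genes (median share 34.6%) and *Kit* and nearest to the germ list, held *Lamb1* at 53.8, 32.8, 69.7 and 41.7 CPM in the same order, overlapping the first. In both clusters replicates 1 were the higher ones in both genotypes.

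A cluster without a name because of its high mitochondrial share (median 30.1%), which carries Sertoli markers, held *Lama1* at 89.5 ± 24.4 CPM and *Lamb2* at 146 ± 77 CPM (SD, n = 4 libraries). An unnamed cluster led by proliferation genes held *Lamc3* at 208 ± 35 CPM and *Lama2* at 177 ± 27 CPM. An unnamed cluster of 17 cells led by *Slpi* and *Upk3b* held *Lama4* at 92.1 ± 48.3 CPM and *Lama5* at 76.8 ± 20.5 CPM, from 13 and 10 UMIs.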
